A study of Mus musculus with 20 samples.

Results

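Transcription at enhancers was compared between macrophages that had received interferon gamma (IFN-γ) together with CpG DNA for 3 h and macrophages that had received neither. The comparison took 4 of the 20 libraries of the series, 2 unstimulated (0 h) and 2 with both stimuli at 3 h, chosen by the treatment and time on their labels and not by any measured value. All 11222 enhancers that the authors counted belonged to the comparison, and 2792 of them had enough tags to be tested. The cells were macrophages grown with M-CSF from bone marrow of C57BL/6 mice, a genotype shared by all groups. The same series holds IFN-γ alone, CpG alone and both at 3, 9 and 15 h, each in 2 libraries. The libraries outside the comparison are used below to place the 3 h combination. They also entered the filter, the scaling and the estimate of spread behind its calls.

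Enhancers are stretches of DNA away from gene starts that raise the activity of genes, and active ones are themselves transcribed into short capped RNAs. Cap analysis of gene expression (CAGE) reads the capped 5′ ends of RNA, so that the number of tags at an enhancer reports its transcription and does not grow with the length of the transcript. Overlap of the counted regions with gene starts was not analysed here. IFN-γ acts through its receptor at the cell surface, and CpG DNA is sensed by TLR9 in the endosome and acts through NF-κB and IRF factors. Macrophages given both signals take on a strongly antimicrobial, inflammatory state. The oligodeoxynucleotide named in the labels is ODN-1826, shown here because the unmethylated CG pairs that TLR9 reads can be seen in it; its 20 bases run 5′ to 3′ with both CG dinucleotides in capitals. The protocol that names it gives a stimulation of another length than the CAGE samples.
ODN-1826: tccatgaCGttcctgaCGtt

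The 4 libraries were sequenced to 13435564 to 13850094 tags, and enhancers held 22026 and 20301 of these tags in the unstimulated libraries and 22284 and 29794 with both stimuli. In RPM, the tags per 1000000 tags of the whole library, the enhancer total was 1552 ± 58.0 (SD, n = 2) unstimulated and 1905 ± 419 with both, a ratio of 1.23. Replicate 2 of the combination stood apart, with the highest enhancer share of the 20 libraries. An exact two-sided permutation test of the total gave p = 0.33, the smallest p that 2 against 2 can give, so it could not have shown a difference. The unstimulated libraries stood at 1593 and 1511 RPM and the combination libraries at 1609 and 2202, so that replicate 1 of the combination lay just above the unstimulated pair. Replicates correlated across enhancers with r = 0.760 unstimulated and 0.738 with both (log2 of RPM + 0.5). The labels call the libraries biological replicates and do not say whether they came from separate animals. The spread behind the edgeR p-values was estimated over all 20 libraries, and whether it covers differences between animals is not known. Unstimulated cells kept for 3 h were not among the groups, so time in culture and stimulation cannot be told apart. In bulk RNA, fewer cells with an active enhancer and less transcription per cell cannot be told apart either.

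Enhancer transcription changed in both directions. With both stimuli 514 enhancers were called higher (18.4% of the 2792 tested) and 250 lower (8.95%) by edgeR's quasi-likelihood test with Benjamini-Hochberg adjustment and a threshold of 0.05. The median fitted log2 change was 4.09 among the enhancers called higher, -2.77 among those called lower and 0.23 over all tested. Of those called higher, 218 had no unstimulated tag, and of those called lower, 44 had no combination tag. With 0 tags in a group no ratio can be measured, so the first 2 medians are not typical fold changes. The quartiles of all log2 changes lay at -1.01 and 1.98, so the distribution reached further up than down around a median that the TMM scaling helps to set. In 4 classes ranked by mean tags, the median was 0.81 in the class with the fewest tags and 0.19, 0.13 and 0.10 in the others. The filter ran over all 20 libraries, and it kept 372 enhancers with no unstimulated tag against 116 with no combination tag. The upward reach is therefore not read as a shift of all enhancers. Of the enhancers called higher, 508 of 514 had both combination libraries above both unstimulated ones, against 35.0% of all tested, and 248 of the 250 called lower had both below, against 27.8% of all tested. These shares use the same libraries as the calls and add nothing to them. The plot of log2 changes against mean tags shows calls at every abundance.

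**Figure D1:**
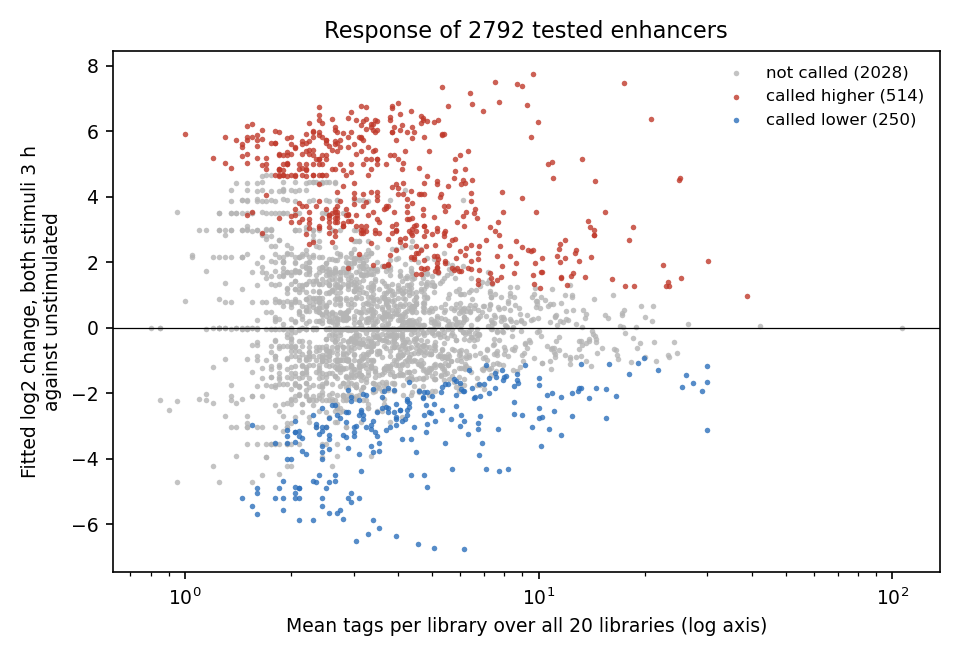
Each point is one of the 2792 tested enhancers, with its mean tags per library on a logarithmic x axis and its fitted log2 change, both stimuli at 3 h against unstimulated, on the y axis. The 514 enhancers called higher and the 250 called lower are coloured, and the calls run from the enhancers of fewest tags to those of most.

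The enhancers called higher had a range of tags in unstimulated cells. Of the 514 called higher, 218 had no tag in either unstimulated library, 225 had 1 to 5 tags over both, and 71 had more than 5. The tested enhancers in these 3 classes numbered 372, 900 and 1520. An enhancer with no unstimulated tag passed the filter through its stimulated libraries, so it could only be called higher, and the first count supports no statement about such enhancers. The reverse class was smaller, with 116 tested enhancers that had no tag with both stimuli, of which 44 were called lower. In the whole deposited list, 2681 enhancers had a tag only with both stimuli, 1499 only in unstimulated cells, and 794 in neither group. The combination libraries held more enhancer tags (22284 and 29794 against 22026 and 20301), and these counts are not corrected for it.

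Calls in both directions were more frequent among the enhancers with the most tags. When the tested enhancers were ranked by mean tags and split into 4 classes, in the class with the most tags (5 to 106.6 per library) 23.2% were called higher and 13.8% lower. In the class with the fewest (0.8 to 2.4) 17.0% were called higher and 5.76% lower. The enhancers called higher had a median width of 366 bases, those called lower 376.5 and those not called 373, so the 3 sets were of like size.

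Leaving out a library lowered the count of calls, and rises remained the larger share. The 764 calls in all (27.4% of those tested), of which rises made up 67.3%, fell to 382 without unstimulated replicate 1, to 419 without unstimulated replicate 2, to 510 without combination replicate 1 and to 430 without combination replicate 2, the library with the most enhancer tags. Rises made up 67.3%, 67.5%, 73.1% and 74.2% of the calls in these fits. DESeq2, a second count test, called 190 higher and 60 lower. With a stricter filter (minimum count 10 and total 30) rises made up 58.2% of the calls, 205 against 147. On simulated data 56% of 4-fold rises and 8% of 4-fold falls were recovered. The share of rises among calls is therefore not the share among all changes.

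The largest gain in tags was at chr1:176651455-176651913 (mm39, as are all positions here, printed as deposited). This enhancer had 1 and 1 tags in the unstimulated libraries and 83 and 111 with both stimuli. It was near silent before and among the most transcribed enhancers after, at 7.10 ± 1.56 RPM against 0.0734 ± 0.00149, a 96.6-fold ratio with an exact 95% counting interval of 26.4 to 803 (edgeR adjusted p = 4.27e-31). IFN-γ alone at 3 h gave 50 and 37 tags there, and CpG alone 2 and 3. By 9 h of both stimuli the count was 15 and 10, and at 15 h it was 17 and 16, so the 3 h libraries held the peak.

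At chr13:5839351-5839665 the count went from 5 and 1 tags to 61 and 85, a log2 change of 4.51 ± 0.44 (SE, adjusted p = 5.12e-21). Unlike the enhancer on chromosome 1, it had intermediate counts with each stimulus alone, 18 and 17 with IFN-γ and 7 and 14 with CpG, and the combination lay above both groups. The edgeR difference from IFN-γ alone was 1.51 (adjusted p = 0.00375) and from CpG alone 2.42 (adjusted p = 3.64e-09). DESeq2 called 0 of the tested enhancers higher than IFN-γ alone, so the first call depends on the test.

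The enhancer at chr11:117878837-117879183 was high at 3 h and at the unstimulated level later. It had 9 and 6 tags unstimulated, 55 and 76 with both stimuli at 3 h (log2 change 3.07 ± 0.38, edgeR adjusted p = 5.09e-13), then 8 and 5 at 9 h and 9 and 5 at 15 h. The later libraries held 5 to 9 tags, beside 6 to 9 in unstimulated cells, and none came near the 3 h values. The enhancer at chr5:121537641-121537963 did not fall back. It went from 1 and 3 tags to 50 and 53 at 3 h (log2 change 4.57 ± 0.50, edgeR adjusted p = 1.10e-16) and held 57 and 47 at 9 h and 62 and 47 at 15 h. With IFN-γ alone at 3 h it had 49 and 23 tags, so one of those libraries reached the level of the combination and the other did not.

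Another 4 enhancers completed the largest gains in RPM. At chr19:29343572-29344121 the tags went from 1 and 1 to 36 and 47, a 41.3-fold ratio (interval 11.1 to 347), and at chr17:36334414-36334921 from 3 and 0 to 30 and 45, a 24.9-fold ratio (interval 8.20 to 123). The enhancers at chr8:121442674-121443289 (6 and 5 tags to 35 and 48) and chr13:50572563-50573251 (3 and 7 to 34 and 41) rose by log2 changes of 2.85 ± 0.44 and 2.84 ± 0.46. The groups do not overlap at any named enhancer, because the rule for naming asked for it. CpG alone at 3 h left each of them at 5 tags or fewer per library, and IFN-γ alone gave 7 to 29.

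The largest log2 rises were all at enhancers with no tag in unstimulated cells, so only the smallest ratio that a group count of 3 tags would allow is given for them, and it covers counting error alone. With both stimuli chr15:74870658-74871129 had 30 and 31 tags, at least 20.2-fold higher (edgeR adjusted p = 5.09e-13). At chr19:11517556-11517878 there were 23 and 29 tags, at least 17.3-fold higher, and at chr3:121164067-121164375 there were 17 and 34, at least 16.9-fold higher. In each of these 3 the IFN-γ libraries at 3 h also had tags (19 and 13, 12 and 6, 20 and 10), while the CpG libraries had 0 to 2. At 15 h of both stimuli they had 4 and 16, 9 and 10, and 41 and 30 tags in the same order, so the first 2 were below their 3 h counts and the last was not.

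The other 5 of this kind were chr1:170845432-170845645 (21 and 29 tags), chr11:21189605-21190141 (23 and 25), chr1:125394231-125394817 (20 and 27), chr1:173879828-173879978 (13 and 29) and chr4:132459018-132459199 (18 and 16). Their bounds ran from at least 11.3-fold to at least 16.6-fold higher. The last of them had few tags with either stimulus alone, 3 and 1 with IFN-γ and 1 and 1 with CpG. By edgeR the combination was called higher than each (adjusted p = 0.0314 and 0.000214), while DESeq2 called 0 enhancers higher than IFN-γ alone. This enhancer was as high at 9 h of both stimuli, with 23 and 28 tags.

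The largest losses in RPM were at enhancers that were well transcribed in unstimulated cells. The first was at chr5:34684166-34684741, with 90 and 91 tags unstimulated and 9 and 12 with both stimuli. Its level went from 6.64 ± 0.187 to 0.768 ± 0.168 RPM, and it fell by 3.12 ± 0.34 on the log2 scale (edgeR adjusted p = 3.47e-17). IFN-γ alone left 20 and 16 tags and CpG alone 38 and 30, so each single stimulus lay between, and the combination stayed at 11 and 9 tags at 9 h and at 9 and 9 at 15 h.

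The next losses differed in how each stimulus alone stood. At chr1:128518463-128519014, which fell by 3.27 ± 0.43 on the log2 scale from 48 and 58 tags to 4 and 7, both single stimuli were already low, with 12 and 10 tags with IFN-γ and 10 and 8 with CpG. At chr2:180085365-180085953 the tags went from 65 and 62 to 19 and 22 (log2 change -1.65 ± 0.31), with 52 and 45 under CpG alone and 32 and 14 under IFN-γ alone. At chr4:141153374-141153582 they went from 30 and 34 to 3 and 7 (log2 change -2.68 ± 0.47), again with high CpG libraries (21 and 25) and low IFN-γ libraries (9 and 12). The CpG libraries were thus low at the first enhancer and nearer to unstimulated cells at the others.

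At chr8:84928192-84928495 the count went from 72 and 70 to 14 and 24, at chr7:73187349-73187850 from 46 and 50 to 13 and 23, and at chr3:94665389-94665621 from 30 and 46 to 13 and 9, with log2 changes of -1.93 ± 0.31, -1.44 ± 0.33 and -1.80 ± 0.38. The smallest of the 8 losses by fold was at chr5:114083055-114083713, with 69 and 57 tags unstimulated and 23 and 34 with both (log2 change -1.17 ± 0.30, edgeR adjusted p = 0.00107). DESeq2 did not call it (adjusted p = 0.0522).

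The largest log2 falls were at 6 of the 44 enhancers called lower that had no tag in either combination library. These were chr19:10256978-10257378 (22 and 8 tags unstimulated), chr14:25473492-25474157 (9 and 20), chr8:122866455-122866761 (15 and 12), chr11:114775634-114775879 (11 and 14), chr13:13561147-13561434 (16 and 7) and chr8:120148704-120149223 (13 and 9). The falls were at least 10.0-fold at the first and at least 7.37-fold at the last. At 5 of the 6 tags were present again in at least one library of both stimuli at 9 h, the exception being chr11:114775634-114775879, and CpG alone at 3 h left 3 to 12 tags in each library. IFN-γ alone at 3 h left 0 to 5, so tags were few there as well.

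Calls lay on every autosome and on the X chromosome, and 1 of 2 tested enhancers on the Y chromosome was called. The balance of calls is described by chromosome with no test, beside 18.4% higher and 8.95% lower over all tested. On chromosome 16 edgeR called 28 (23.9%) higher and 2 (1.71%) lower of 117 enhancers, with a median log2 change of 1.14. The X chromosome had 7 (20.0%) higher and 1 (2.86%) lower of 35, with the rises near the share over all tested. On chromosome 8 it called 19 (13.6%) higher and 22 (15.7%) lower of 140, and on chromosome 14 it called 8 (9.76%) and 12 (14.6%) of 82. Chromosome 11 had the most tested enhancers and the most rises, 56 of 230 (24.3%), with 20 falls (8.70%). Its share of rises was near those of chromosomes 16 and 1 (23.9% and 23.6%).

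Enhancers close to each other moved together. For pairs of adjacent tested enhancers no more than 2 kb apart, the log2 changes correlated with Pearson r = 0.64 over 374 pairs, and at 2 to 10 kb with r = 0.60 over 403 pairs. The correlation was 0.43 at 10 to 50 kb (431 pairs), 0.30 at 50 to 200 kb (427 pairs) and 0.080 beyond 200 kb (1135 pairs). Where both enhancers of a pair were called, all 53 pairs within 2 kb and all 57 pairs at 2 to 10 kb had the same direction, and beyond 200 kb 51 of 76 did. Since 67.3% of all calls were rises, unrelated called enhancers would often share a direction too, and the 51 are not read as agreement. The correlations are the main description. These are correlations across enhancers that share libraries, depth and scaling, and overlapping or adjacent regions can belong to one transcribed stretch, so they are given as a description. The plot of correlation against the gap shows the decline.

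**Figure D2:**
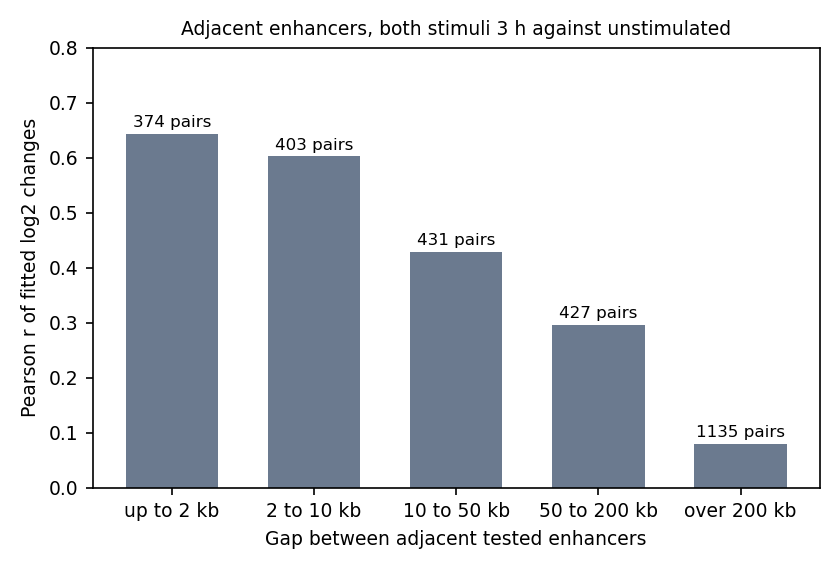
Bars show the Pearson correlation of the fitted log2 changes (both stimuli at 3 h against unstimulated) of adjacent tested enhancers, by the gap between them, with the number of pairs above each bar. The bars drop from 0.64 within 2 kb to 0.080 beyond 200 kb.

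Since neighbours moved together, enhancers whose gap to the next was at most 50 kb were joined into loci and their tags summed, including those of enhancers too sparse to test alone. This gave 3866 loci, of which 1843 held a single enhancer, and 1896 loci had enough tags to test. With both stimuli 437 loci were called higher (23% of those tested) and 326 lower (17.2%) by edgeR. The median log2 change over tested loci was 0.05. Of the loci called, 298 held no enhancer that was called by itself, and 103 of those held no enhancer that could be tested. Among 146 loci with at least 2 called enhancers, 99 had rises only, 39 had falls only and 8 had both. Among the mixed ones 1, at chr6:31054229-31198882, held 2 enhancers called higher and 2 called lower of 15 tested.

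The 8 loci with the most enhancers called higher each lay on a different chromosome. At chr5:99484162-99603691, 7 of 8 tested enhancers were called higher, and the locus sum went from 20 and 27 tags to 64 and 137 (log2 change 1.90 ± 0.24, edgeR adjusted p = 4.32e-13). Replicate 2 of the combination was well above replicate 1 here, and both were above every unstimulated, IFN-γ (27 and 28) and CpG (26 and 20) library at 3 h. At chr11:82934995-83052740, 7 of 10 were called higher, and the sum went from 27 and 21 to 79 and 118 (log2 change 1.86 ± 0.24). In this second locus each single stimulus gave an intermediate sum, 51 and 42 with IFN-γ and 39 and 34 with CpG.

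The locus at chr4:132459018-132543954 had the strongest rise among them by adjusted p. It spans 84.9 kb and holds 12 enhancers, 7 of them tested and 6 called higher, and its sum went from 4 and 5 tags to 93 and 114 (log2 change 4.32 ± 0.34, edgeR adjusted p = 9.98e-34). The members with the most tags were chr4:132521270-132521724 (1 and 0 tags to 24 and 17) and chr4:132522111-132522441 (1 and 1 to 15 and 22), and the latter had no tag with CpG alone. IFN-γ alone gave 40 and 26 tags over the locus and CpG alone 7 and 7. The combination was called higher than IFN-γ alone by edgeR (log2 difference 1.01, adjusted p = 0.00103).

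At chr13:5755061-5939126, the longest of these loci at 184 kb, 6 of 12 tested enhancers were called higher and the sum went from 29 and 36 tags to 167 and 243 (log2 change 2.48 ± 0.20, edgeR adjusted p = 6.62e-33). The enhancer at chr13:5839351-5839665 described above gave 61 and 85 of these tags, and 5 further enhancers from chr13:5819692-5820039 to chr13:5853967-5854406 were called with it. Toward the end of the locus the enhancers were steadier, with chr13:5887258-5887891 at 2 and 5 tags before and 6 and 7 after (log2 change 0.84, adjusted p = 0.427).

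At chr15:74790406-74937680 and chr19:29341514-29476888 IFN-γ alone gave a large part of the rise and CpG alone almost none. The first went from 6 and 3 tags to 96 and 91 with both stimuli, with 57 and 44 with IFN-γ and 6 and 4 with CpG. The second went from 4 and 10 to 84 and 119, with 53 and 44 with IFN-γ and 5 and 12 with CpG. The difference between the combination and IFN-γ alone was not called at either (log2 difference 0.26, adjusted p = 0.511, and 0.42, adjusted p = 0.224, edgeR). A p that misses the threshold does not show that the 2 treatments acted alike. In the first locus 6 of 8 tested enhancers were called higher than in unstimulated cells, in the second 4 of 7.

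At chr8:66839773-66944716 each single stimulus gave few tags. The log2 change from unstimulated cells was 1.66 ± 0.69 with IFN-γ and 1.55 ± 0.68 with CpG (SE). Neither was called by edgeR (adjusted p = 0.0664 and 0.145). Departure from the sum of the single responses was not tested for loci. The locus had 5 and 1 tags unstimulated, 7 and 7 with IFN-γ, 7 and 8 with CpG, and 48 and 58 with both (log2 change from unstimulated 3.92 ± 0.45, edgeR adjusted p = 6.39e-16). The combination lay far above each single stimulus, by a log2 difference of 2.26 from IFN-γ (adjusted p = 2.49e-06) and of 2.38 from CpG (adjusted p = 1.97e-08). Of its 5 tested enhancers 4 were called higher, and 2 of these, at chr8:66890641-66890816 and chr8:66891078-66891431, had no unstimulated tag. The locus had 22 and 35 tags at 9 h of both stimuli and 24 and 27 at 15 h. At chr6:38852056-38985542, with 5 of 6 enhancers called higher, the sums were 11 and 13 unstimulated, 28 and 27 with IFN-γ, 16 and 17 with CpG and 80 and 113 with both. It too was higher with both than with IFN-γ alone (log2 difference 1.16, adjusted p = 3.40e-04).

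Loci with the most falls held fewer called enhancers. At chr11:114770587-114895102, 5 of 6 tested enhancers were called lower and the sum went from 102 and 128 tags to 23 and 26 (log2 change -2.39 ± 0.23, edgeR adjusted p = 2.28e-22). Its member chr11:114788923-114789329 went from 25 and 22 tags to 0 and 3, and the one at its far end, chr11:114894820-114895102, kept 20 and 15 of 37 and 48. The locus stood at 26 and 23 tags with IFN-γ alone, the level of the combination, and at 72 and 59 with CpG alone.

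A like order was seen at chr14:25458377-25520465, chr1:135547429-135627355 and chr19:12412705-12461240. The first went from 48 and 54 tags to 2 and 13 with both stimuli (log2 change -2.92 ± 0.36), against 12 and 6 with IFN-γ and 38 and 36 with CpG. The second went from 81 and 54 to 18 and 24 (log2 change -1.84 ± 0.26), against 15 and 13 with IFN-γ and 66 and 60 with CpG. The third went from 49 and 37 to 7 and 14 (log2 change -2.19 ± 0.34), against 17 and 10 and 36 and 43. In all 3 loci the CpG libraries lay above every library that had received IFN-γ at 3 h.

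At chr13:12649884-12695165 the single stimuli gave like sums, with 47 and 42 tags unstimulated, 17 and 15 with IFN-γ, 19 and 21 with CpG and 12 and 7 with both (log2 change -2.37 ± 0.36). Here edgeR with TMM factors called the combination lower than IFN-γ alone (log2 difference -1.38, adjusted p = 0.0315). In RPM the levels were 1.22 ± 0.0925 with IFN-γ and 0.692 ± 0.247 with both. Falls below IFN-γ depended on the method, with 59 loci by edgeR, 9 with whole-library totals and 19 with DESeq2. Whether this locus was among the 9 or the 19 is not given here. The locus with the most enhancers of all, 30, at chr1:190913356-191059965, changed least among those described, from 182 and 150 tags to 91 and 112 (log2 change -0.87 ± 0.16, adjusted p = 1.56e-06). Of its 14 tested enhancers 4 were called lower. The plot of locus sums by library shows these loci side by side.

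**Figure D3:**
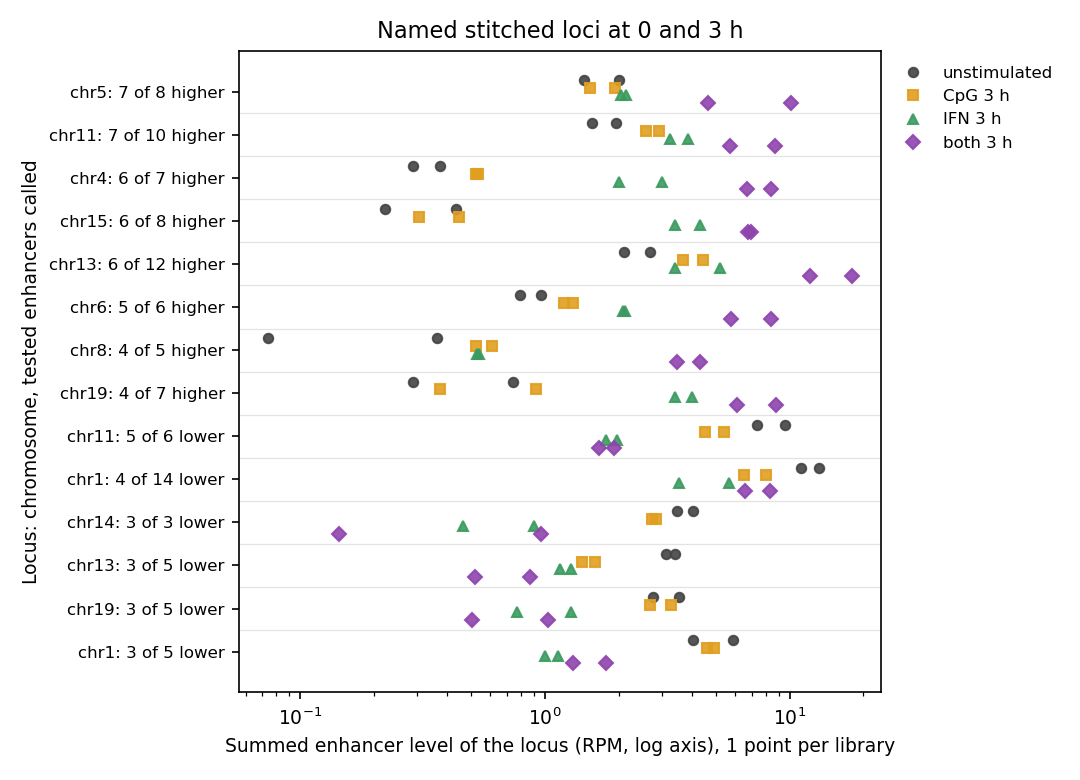
Points show the summed enhancer RPM of each described locus in each library of unstimulated cells and of IFN-γ, CpG or both at 3 h, with a logarithmic value axis. Loci with rises sit highest with both stimuli, for example 48 and 58 tags at chr8:66839773-66944716 against 8 or fewer in every other library drawn, and loci with falls sit lowest with both stimuli or with IFN-γ.

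The enhancers called in the comparison were then followed through the other groups, whose libraries were not part of the contrast but entered the same fit through the filter, the scaling and the estimate of spread. Summed over the 514 enhancers called higher, the level was 49.3 and 45.0 RPM unstimulated and 366.3 and 488.6 with both at 3 h, as the choice of these enhancers requires. In the single-stimulus libraries at 3 h it was 205.0 and 159.7 with IFN-γ and 90.7 and 96.9 with CpG. The IFN-γ libraries thus lay above the CpG libraries without overlap, while the place of the combination above both follows from the choice of enhancers. With both stimuli the sum was 229.1 and 229.2 at 9 h and 260.4 and 312.0 at 15 h, above the CpG libraries of the same time (132.6 and 118.4, and 121.4 and 113.9). IFN-γ alone gave 180.9 and 255.4 at 9 h, which overlapped the combination, and 182.0 and 184.7 at 15 h, which lay below it.

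Over the 250 enhancers called lower the sum was 241.9 and 239.1 RPM unstimulated and 41.4 and 55.1 with both at 3 h. IFN-γ alone at 3 h had 84.3 and 59.2 and CpG alone 120.3 and 126.8, so the IFN-γ libraries lay below the CpG libraries; the low place of the combination follows from the choice. With both stimuli the sum stayed low, at 60.6 and 52.2 at 9 h and 81.2 and 97.6 at 15 h. Over the 2028 tested enhancers that were not called, the sums were 693.9 and 653.7 unstimulated and 577.3 and 755.1 with both, so these overlapped between the groups. With IFN-γ alone at 3 h they were 561.0 and 407.2 and with CpG alone 565.9 and 611.0, so the IFN-γ libraries were lower there as well. Replicate 2 of IFN-γ at 3 h had the lowest enhancer total of the 20 libraries, 991 RPM, and these sums are not corrected for it.

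**Figure D4:**
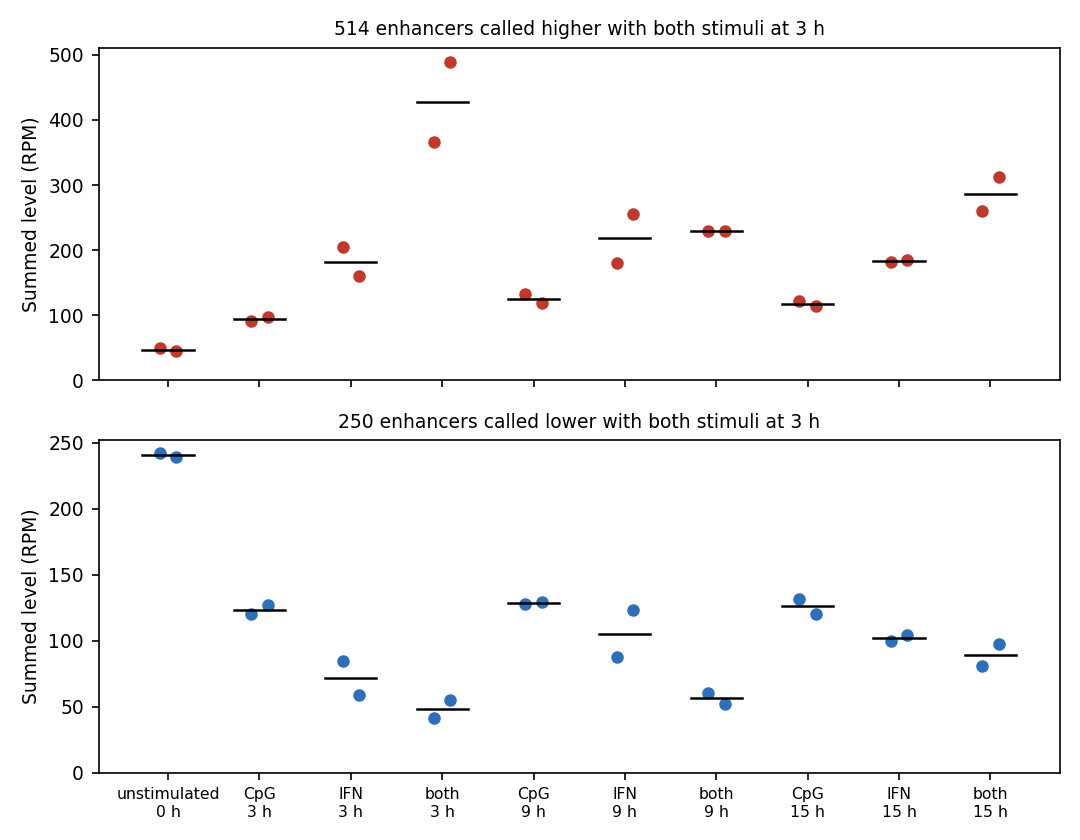
Points show the RPM summed over the 514 enhancers called higher and the 250 called lower, in each of the 20 libraries, by stimulus and time. The unstimulated and combination 3 h libraries chose the enhancers, so their places are fixed; of the rest at 3 h, the IFN-γ libraries (205.0 and 159.7 for rises) stand above the CpG libraries (90.7 and 96.9).

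IFN-γ alone and CpG alone at 3 h share no library with the contrast that chose these enhancers, so they could be tested against each other. Of the 514 enhancers called higher with both stimuli, 105 (20.4%) were higher with IFN-γ than with CpG and 21 (4.09%) were lower by edgeR, against 6.2% and 4.08% of all tested enhancers. Their median log2 difference was 1.77 in favour of IFN-γ, and 382 of the 514 were positive, where the median over all tested was 0. At 9 h 162 (31.5%) were higher and 40 (7.78%) lower with IFN-γ, against 12.2% and 9.67% of all tested. At 15 h 130 (25.3%) were higher and 28 (5.45%) lower, against 9.89% and 7.49%. DESeq2 gave fewer calls at 3 h, 42 higher and 3 lower. Without one of the 4 single-stimulus libraries edgeR called 39 to 69 higher and 3 to 9 lower.

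The 250 enhancers called lower were compared between the single stimuli in the same way. By edgeR, 1 at 3 h (0.4%) was higher with IFN-γ than with CpG and 20 (8.00%) were lower. Over all tested these shares were 6.2% and 4.08%. The median log2 difference of the 250 was -0.77. DESeq2 called 0 in either direction, with 28 at an unadjusted p under 0.05 against 56 by edgeR. At 9 h 13 (5.2%) were higher and 22 (8.8%) lower, with a median of -0.16. The shares of all tested were 12.2% and 9.67%, so both directions lay below them and the higher side further. At 15 h 10 (4.00%) were higher and 15 (6.00%) lower, against 9.89% and 7.49% of all tested, with a median of -0.14. Among the 2028 enhancers not called, 67 (3.30%) were higher and 73 (3.60%) lower with IFN-γ at 3 h, with a median of -0.12. The plot of cumulative shares shows the spread behind these medians.

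**Figure D5:**
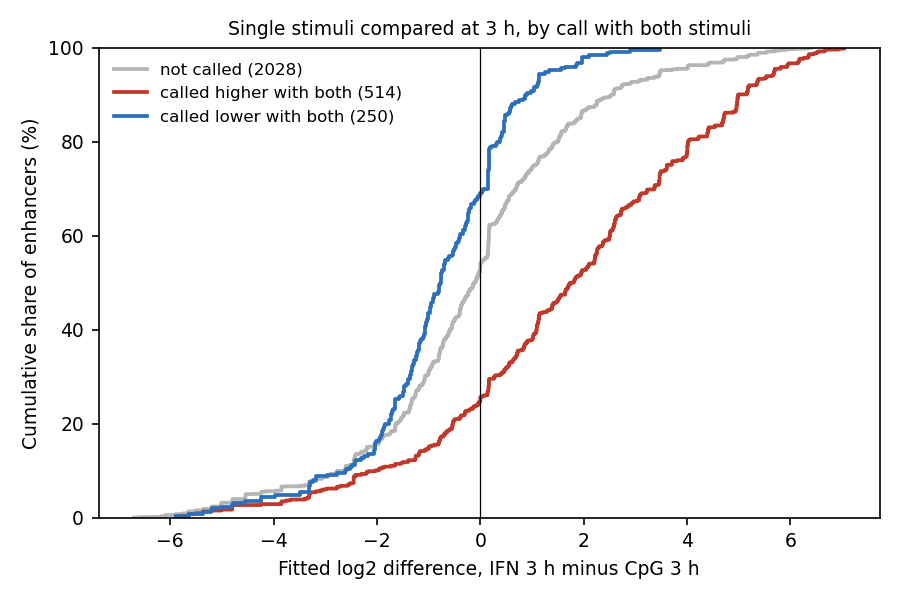
Curves show the cumulative share of enhancers (percent, y axis) by their fitted log2 difference between IFN-γ alone and CpG alone at 3 h (x axis), for enhancers called higher, called lower and not called with both stimuli. The curve of the 514 called higher lies to the right, with a median of 1.77, and that of the 250 called lower to the left, with a median of -0.77.

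Set directly against IFN-γ alone at 3 h, the number of enhancers that differed depended strongly on the test. By edgeR 29 of 2792 were higher (1.04%) and 7 lower (0.251%), with 425 at an unadjusted p under 0.05. DESeq2 called 0 higher and 1 lower, and edgeR without one of the 4 libraries called 0 to 2 higher and 1 to 2 lower, so that most single calls of this comparison rest on all 4 libraries. The exception among the named enhancers was chr17:27766195-27766562, called under all 16 alternatives. The split also depends on the scaling. With whole-library totals in place of the TMM factors 106 were higher and 4 lower (96.4% rises against 80.6%), as the median log2 difference over all tested enhancers moved from 0.11 to 0.57. Limma on log2 RPM, which carries the same whole-library scaling, called 253, 167 and 276 higher and 10, 9 and 9 lower with pseudocounts of 0.5, 0.1 and 2. The summed loci carried more calls, 93 higher (4.91% of 1896) and 59 lower (3.11%), and 23 to 65 higher and 13 to 41 lower with a library left out. Their lean followed the method too, with 275 loci higher and 9 lower under whole-library totals and 17 and 19 with DESeq2.

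The enhancers with the largest rises over IFN-γ alone had no tag in either IFN-γ library. At chr6:28625076-28625700 the combination had 11 and 12 tags, at least 7.34-fold higher (edgeR adjusted p = 0.0184), at chr4:116512393-116512690 it had 10 and 11, at chr3:143844286-143844751 11 and 9, and at chr1:153226796-153227214 10 and 9. CpG alone gave 1 to 5 tags in each library at these 4. In the other direction chr17:27766195-27766562 had 43 and 20 tags with IFN-γ and 3 and 12 with both (log2 difference -2.57, adjusted p = 4.36e-06), and 19 and 14 in unstimulated cells. At chr3:20081160-20081406 IFN-γ gave 7 and 8 tags, where every unstimulated, CpG and combination library at 3 h held at most 1.

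The other falls below IFN-γ were of few tags. At chr5:140595438-140595642 there were 8 and 3 tags with IFN-γ and none with both, at least 3.83-fold lower, and at chr5:120696843-120697231 there were 9 and 6 with IFN-γ and 0 and 2 with both, a 7.83-fold ratio with an exact counting interval of 1.82 to 70.6. The second of these had 12 and 13 tags in unstimulated cells and was also lower than there (edgeR adjusted p = 0.000416).

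Against CpG alone at 3 h the combination differed widely. By edgeR 318 enhancers were higher (11.4%) and 152 lower (5.44%), and without one of the 4 libraries 104 to 219 were higher and 42 to 60 lower. With whole-library totals 376 were higher and 85 lower (81.6% rises against 67.7%), as the median over all tested moved from 0.11 to 0.42. The named rises had no tag with CpG alone. At chr4:132522111-132522441 the combination had 15 and 22 tags, at least 11.9-fold higher (adjusted p = 2.92e-06), at chr12:32866016-32866323 it had 16 and 17, at chr5:92516052-92516571 it had 19 and 12, and at chr11:21170765-21171099 it had 8 and 28. The enhancer at chr12:32866016-32866323 was also near silent with IFN-γ alone, at 2 and 0 tags. It was called higher with both than with IFN-γ by edgeR (adjusted p = 0.0184) but not by DESeq2.

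Of the largest falls below CpG alone, chr19:10256978-10257378 and chr8:122866455-122866761 were also among the falls from unstimulated cells, and they had 12 and 7 and 6 and 11 tags with CpG. The other pair, chr11:8544429-8544852 (8 and 7 tags with CpG) and chr11:119600096-119600596 (6 and 7), had no tag with both stimuli. Neither of this pair was called by edgeR without replicate 2 of the combination (adjusted p = 0.0556 and 0.0758).

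Whether the log2 response to both stimuli at 3 h departed from the sum of the single responses was tested at every enhancer. By edgeR 0 of 2792 enhancers were above the sum and 1 was below it (0.0358%), with 189 at an unadjusted p under 0.05. DESeq2 called 0, with 82 at an unadjusted p under 0.05. Limma on log2 RPM called 46, 8 and 87 above the sum and 1, 1 and 2 below it with pseudocounts of 0.5, 0.1 and 2. The median departure was 0.07 among the 514 enhancers called higher and 0.03 over all tested, and it moved to 0.73 over all tested under whole-library totals. The enhancer called was chr17:27766195-27766562, where IFN-γ alone was above unstimulated cells and both stimuli were not (departure -2.67 on the log2 scale, adjusted p = 0.0460). This call was kept in 5 of 20 alternatives, and it was lost without either unstimulated library, either CpG library, IFN-γ replicate 1 or combination replicate 1 (adjusted p of 0.102 to 0.64). The absence of further calls does not show that the responses added up.

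The rule for calls placed its edge among enhancers of few tags. The 5 enhancers just inside the threshold for rises had log2 changes of 1.92 to 4.66 and the 5 just outside it 1.58 to 4.66. For falls the values ran from -4.48 to -1.82 inside and from -3.02 to -1.22 outside.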

How the data were processed

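Tags were counted by nAnT-iCAGE in 20 libraries of 10 groups of 2. The submitters' processing notes list HISAT2 2.1.0, BWA 0.7.10, Trimmomatic 0.38 and FastQC 0.11.5, and mm39 as the build. Which caller defined the enhancers is not given in the sources used here. Per the labels, the protocols also describe polarization with IL-4 and IL-10 and a stimulation of another length; whether these, or the doses there, apply to the CAGE libraries is not stated. The authors deposited raw tag counts of 11222 enhancers and a normalized table beside it. The deposited values of the normalized table are RPM of the whole library: 100% of them gave whole tags (tolerance 0.001), equal to the raw counts, and the count test on them gave the same 764 calls.

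Counts were tested with edgeR 4.0.16 in R 4.3.3 (quasi-likelihood F-test, two-sided, TMM factors, filterByExpr with minimum count 5 and minimum total 15, 1 coefficient per group over all 20 libraries, 10 residual degrees of freedom, Benjamini-Hochberg). The 2792 tested enhancers held 59.0% to 64.7% of enhancer tags, with a median of 3 tags per library. A standard error is the log2 change divided by the square root of F. On simulated data (2792 enhancers, both stimuli at 3 h against unstimulated) the test recovered 96% of enhancers raised 8-fold, 56% raised 4-fold, 10% raised 2-fold and 8% lowered 4-fold, and 6.59% of calls were false.

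The members, lists and rules were chosen with earlier results of these data known; the loci against single stimuli, the IFN-γ against CpG comparison and the neighbours were added after the tables were seen. Named enhancers, with groups that did not overlap and a mean of at least 5 tags in the higher group, were the 8 largest log2 rises, 8 largest RPM gains, 6 largest log2 falls and 8 largest RPM losses against unstimulated cells, and the 4 largest each way for the other tests; named loci were the 8 with the most enhancers called higher and the 6 with the most called lower. Alternatives were RLE factors, whole-library totals, DESeq2 1.42.0, no or a stricter filter, the compared groups alone, a replicate block, limma 3.58.1 with log2 RPM plus 0.5, 0.1 or 2, and leaving out each library. In the main fit replicate numbers were not used to pair the samples. Deviations of same-numbered libraries correlated at -0.0595 to 0.0716 over 45 pairs of groups. With few tags per enhancer, counting error could hide a pairing, so these values do not exclude one. The annotation at hand is of GRCm38 and coordinates were not converted, so genes near enhancers, marker genes and enhancer sequences are not analysed here.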

Additional observations from a re-analysis of the deposited data

Results flagged for a closer look

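At chr17:27766195-27766562 the log2 response to both stimuli at 3 h differed from the sum of the single responses by -2.67 (SE 0.62, edgeR adjusted p = 0.0460). The tags were 19 and 14 unstimulated, 43 and 20 with IFN-γ, 13 and 15 with CpG and 3 and 12 with both. By edgeR with TMM factors it was the 1 enhancer of 2792 called for such a difference; limma on log2 RPM called 47, 9 and 89 (pseudocounts 0.5, 0.1 and 2), and DESeq2 and edgeR with RLE factors or the replicate block called 0. The call was kept in 5 of 20 alternatives and lost in 15, and the departure stayed negative in all 20.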

How the results depend on the processing

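Of 44 named enhancers and loci tested against unstimulated cells, 621 of 622 values under the alternatives kept the call and direction, and 1 lost its call (chr5:114083055-114083713, DESeq2). These items were picked from the same libraries for large changes or many calls, so their stability does not extend to the other calls. Alternatives in which an item was not tested, had no adjusted p or had other locus borders gave no value. The counts of calls moved more, and where they did the cause was not tested unless fewer samples or fewer enhancers entered. Against unstimulated cells, enhancers called higher numbered 190 with DESeq2, 205 with the stricter filter, 1016 with limma without a filter and 257 to 373 with a library left out; called lower, 60, 147, 498 and 111 to 137. Against IFN-γ, rises numbered 106 with whole-library totals, 0 with DESeq2, 2 without a filter, 64 with the compared groups alone, 253, 167 and 276 with limma (pseudocounts 0.5, 0.1 and 2), 366 with limma without a filter and 0 to 2 with a library left out; falls numbered 4 with whole-library totals, 1 with DESeq2, 2 without a filter, 14 with the stricter filter or the compared groups alone and 1 to 2 with a library left out. Against CpG, rises numbered 87 with DESeq2, 210 without a filter, 149 with the stricter filter, 489 with limma (0.5), 806 with limma without a filter and 104 to 219 with a library left out; falls numbered 85 with whole-library totals, 27 with DESeq2, 60 without a filter, 99 with limma (2) and 42 to 60 with a library left out. Departures above the sum numbered 46, 8 and 87 with limma (0.5, 0.1 and 2) and 11 with limma without a filter; those below it 2 with limma (2) and 0 with RLE factors, whole-library totals, DESeq2, no filter or the replicate block; both numbered 0 to 1 with a library left out.

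Loci called higher and lower against unstimulated cells numbered 251 and 157 with DESeq2, and 293 to 380 and 200 to 252 with a library left out. Against IFN-γ they numbered 275 and 9 with whole-library totals and 17 and 19 with DESeq2, falls 34 without a filter, and 23 to 65 and 13 to 41 with a library left out. Against CpG they numbered 154 and 92 with DESeq2, falls 106 with whole-library totals, and 200 to 264 and 100 to 142 with a library left out. Enhancers called higher with both stimuli that were also higher with IFN-γ than CpG numbered 42 with DESeq2, 60 without a filter, 61 with limma (2), 53 with limma without a filter and 39 to 69 with a library left out. The difference in total enhancer RPM ran from 56.9 to 650 with a library left out.

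The replicate number as a block, which the labels do not tie to a shared animal or day, gave 484 higher and 226 lower against unstimulated cells, 29 and 9 against IFN-γ and 307 and 148 against CpG, and ended the departure call. The gene list and motif alternatives were not run, since the annotation and genome at hand are of GRCm38. Depth limits single enhancers: most tested ones have few tags per library, and 4-fold falls were rarely recovered on simulated data.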
